A study of Mus musculus with 6 samples.

Results

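Corin and Angpt2 were 2 of the 109 genes in the deposited table of RNA-seq results, and they were found there by their gene symbols. Corin encodes a protease held in the cell membrane, and Angpt2 encodes a secreted growth factor ligand. Both were lower in mogrol-treated cells. Corin fell to 19.8% and Angpt2 to 45.9% of the mean FPKM of control cells. The authors had limited that table to genes past a 2-fold change in either direction whose adjusted p-value in their own comparison lay under 0.05. The difference between control and mogrol-treated cells is therefore what chose both genes, and it is described here without a p-value.

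The cells were bone marrow macrophages (BMMs) of C57BL/6 mice, a precursor culture grown with M-CSF, in which RANKL starts the formation of osteoclasts. Control cells (3 libraries) had received 30 ng/ml RANKL without mogrol over 5 days. Mogrol-treated cells (3 libraries) had received the same 30 ng/ml RANKL together with 20 μM mogrol over the same 5 days. Both groups thus shared RANKL, and the labels name no vehicle for the control cells. Mogrol is a plant triterpenoid, the part left of the sweet glycosides of monk fruit once their sugars are removed. By their labels the groups differ in mogrol alone. With no vehicle named, an effect of its solvent cannot be told apart from that of mogrol. The labels do not say whether the replicates were separate animals or separate dishes, so the spread between libraries may be technical. The libraries held 18097882 to 18652439 reads each.

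Corin belongs to the type II transmembrane serine proteases, which keep a short tail inside the cell and present their catalytic domain outside. It cuts the precursor of atrial natriuretic peptide into the active hormone, and that hormone acts through the receptor Npr1 to promote salt excretion and widen vessels. Corin is best known from heart muscle. Angpt2, or angiopoietin-2, binds the receptor tyrosine kinase Tie2, the product of Tek. It can oppose the vessel-stabilising ligand Angpt1 at that receptor, and endothelial cells are its best known source. Neither gene is among the usual markers of osteoclasts. The annotation columns of the table gave Corin 14 and Angpt2 27 Gene Ontology (GO) terms, and the genes shared 0 of them. The Corin terms covered serine-type endopeptidase activity, peptide hormone processing and control of arterial blood pressure by atrial natriuretic peptide. The Angpt2 terms covered Tie signaling and both positive and negative regulation of angiogenesis.

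Corin (ENSMUSG00000005220) lies on the minus strand of GRCm38 chromosome 5, from 72300025 to 72504473. Its exons merge into 24 blocks with 5400 bases, or 2.64% of a span of 204449 bases, and the annotation lists 5 protein-coding transcripts. Angpt2 (ENSMUSG00000031465) lies on the minus strand of chromosome 8, from 18690263 to 18741562. It has 10 exonic blocks with 3690 bases, or 7.19% of 51300 bases, and 1 protein-coding transcript. These exonic totals equal the gene lengths that the authors used for FPKM. Angpt2 lies wholly inside the gene Mcph1 on the opposite strand, but shares 0 exonic bases with it. Corin overlaps 5 annotated noncoding genes or pseudogenes. The antisense gene Gm20647 shares 147 exonic bases with it, or 2.72% of its exonic length, and the other 4 share 0. The use of strand in counting is not given in the sources used here, so reads from that stretch of Corin cannot be told apart from antisense reads. None of the 6 overlapping genes is in the deposited table.

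**Figure D1:**
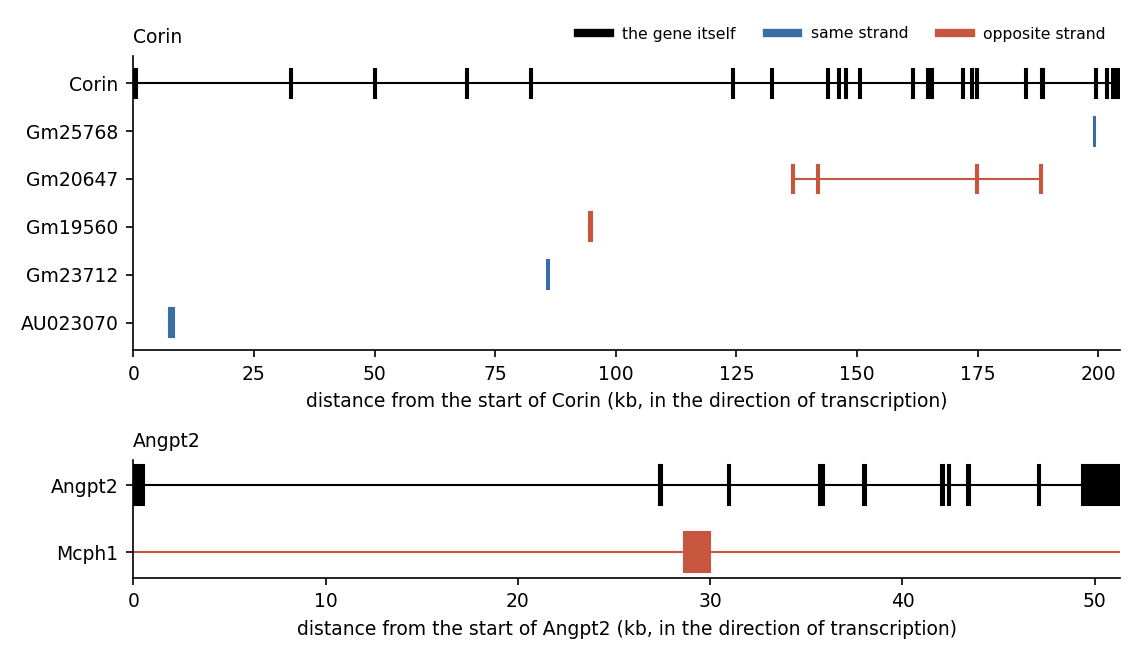
Maps of Corin and Angpt2 with the annotated genes that overlap them, on the axis the distance in kb from the start of each gene in its direction of transcription. Boxes are exons of all transcripts merged, lines are gene spans, with the gene itself in black, genes on its strand in blue and genes on the opposite strand in red; the exons of Mcph1 and Angpt2 do not touch, whereas 147 exonic bases of Corin are shared with Gm20647.

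The reference promoter table of RefSeq held 1 of the 2 genes, Corin, and had no entry for Angpt2. The Corin window covers 250 bases before and 50 after the RefSeq start (GRCm38.p6, chr5:72504491-72504790, minus strand), which lies 67 bases before the start in the gene annotation above. It is shown as the only promoter available for the 2 genes, with matches to motifs of factors that act downstream of RANKL in capitals.
Corin promoter: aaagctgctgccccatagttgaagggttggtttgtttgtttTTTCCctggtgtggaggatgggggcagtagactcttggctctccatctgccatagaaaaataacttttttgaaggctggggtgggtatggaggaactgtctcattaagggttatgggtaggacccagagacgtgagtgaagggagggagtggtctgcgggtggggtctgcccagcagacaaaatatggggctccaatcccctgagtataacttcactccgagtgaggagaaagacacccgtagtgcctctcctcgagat
The letters GGAAA, the NFAT core, matched 1 time, on the strand opposite to the gene and starting 209 bases before the RefSeq start. Such a match was present in 61.3% of the 32851 promoters of the table, with both strands searched. The letters TGANTCA for AP-1, CACGTG for MITF, TATAAA for the TATA box and the NF-κB consensus matched 0 times in this window. The shares of all promoters with a match were 7.81%, 7.15%, 13.6% and 4.51% in that order. The match overlapped no other motif searched, and it is a description of letters, not of a binding site. The GC content of the window was 51.7%, close to the median of 52.7% over all promoters.

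Corin was a gene of moderate level in control cells and of low level in mogrol-treated cells. It had 307, 304 and 267 reads in control replicates 1, 2 and 3, and 49, 64 and 60 reads in mogrol replicates 1, 2 and 3. The groups lay far apart, and the lowest control library held several times the reads of the highest mogrol library. On the FPKM scale, reads scaled by gene length and library total, the control libraries had 3.07, 3.02 and 2.72 and the mogrol libraries 0.49, 0.65 and 0.60, which left a gap of 2.07 FPKM between the groups. The group means were 2.94 ± 0.189 and 0.580 ± 0.0819 FPKM (SD, n = 3). Control replicate 3 was the lowest of its group and mogrol replicate 1 the lowest of its group. The coefficient of variation of the control libraries was 6.52% (5.85% from counting alone), and that of the mogrol libraries was 14.4% (13.2% from counting alone). The scatter of Corin within each group was thus about what its read counts give. The exact Poisson interval (95%, counting error only) was 36.3 to 64.8 reads for mogrol replicate 1 and 235.9 to 301.0 reads for control replicate 3. The log2 fold change from edgeR, on library totals, was -2.33 (standard error 0.177, n = 3 per group), a level 5.02-fold lower with mogrol.

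Angpt2 had a higher level and a smaller fall. It had 445, 469 and 445 reads in control replicates 1, 2 and 3, and 220, 200 and 199 reads in mogrol replicates 1, 2 and 3. The control libraries had 6.51, 6.81 and 6.62 FPKM, and the mogrol libraries had 3.22, 2.99 and 2.94 FPKM. The group means were 6.65 ± 0.152 and 3.05 ± 0.149 FPKM (SD, n = 3). The groups did not overlap, and 3.29 FPKM lay between the lowest control and the highest mogrol library. The libraries of each group lay closer together than counting alone gives. The coefficient of variation was 2.31% in control and 4.96% in mogrol-treated cells, against 4.70% and 6.96% from counting. The log2 fold change from edgeR was -1.12 (standard error 0.128, n = 3 per group), a level 2.18-fold lower with mogrol. In bulk RNA a smaller share of cells that make a transcript and less transcript per cell cannot be told apart, for Angpt2 as for Corin.

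**Figure D2:**
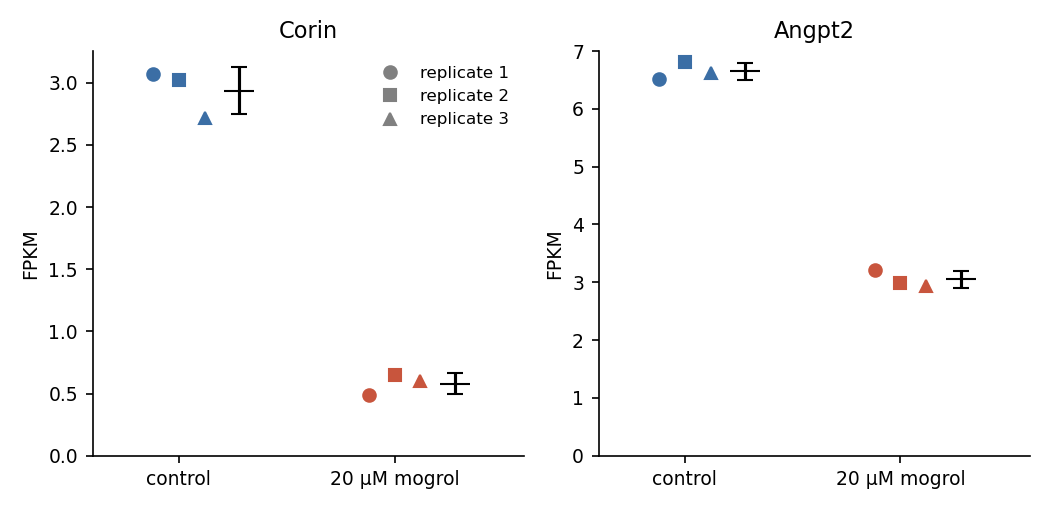
FPKM of Corin (left) and Angpt2 (right) in each control and 20 μM mogrol library, with a marker shape for each replicate and, in black, the mean and SD of the 3 libraries; both axes start at 0. The Corin libraries sit between 2.72 and 3.07 in control and between 0.49 and 0.65 in mogrol-treated cells, and the Angpt2 libraries between 6.51 and 6.81 and between 2.94 and 3.22.

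Other scalings moved the log2 fold changes of Corin and Angpt2 by similar amounts, and Angpt2 had the smaller fall to begin with. The median log2 fold change of the 109 genes was -1.09, so scalings that centre on these genes take out much of a fall of that size. Such scalings assume that most genes do not change, which does not hold in a table selected for change. With TMM over the 109 genes the median moved up by 0.37, and the log2 fold changes became -1.96 for Corin and -0.75 for Angpt2. With median-of-ratios size factors over the same genes it moved up by 0.98, and the values became -1.35 and -0.14. Corin stayed past 2-fold in both, and Angpt2 did not. With the latter factors the value of Angpt2 (standard error 0.130) lay about 1 standard error from 0. With the size factors recovered from the deposited mean normalized counts, the log2 fold change of Angpt2 was -1.19. No scaling turned the sign of Corin or Angpt2.

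The ratio of the genes does not depend on library scaling, since both values come from the same library. Corin stood at 0.472, 0.443 and 0.411 times the FPKM of Angpt2 in control replicates 1, 2 and 3. In mogrol replicates 1, 2 and 3 the ratio was 0.152, 0.217 and 0.204. The mean ratio was thus 0.442 ± 0.0304 without mogrol and 0.191 ± 0.0345 with it (SD, n = 3), and the groups did not overlap. On the log2 scale the ratio fell by 1.22 (standard error 0.169). Angpt2 was thus the more abundant transcript per length in all 6 libraries, and the gap to Corin was wider with mogrol. Both genes were chosen for their difference, so this ratio is given as a description.

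Among the genes of the table, Corin was near the middle by level in control cells and low in mogrol-treated cells. By mean FPKM it was the middle gene of the control cells, at rank 55 of 109, and it stood at rank 86 with mogrol. Angpt2 went from rank 36 to rank 54. The median level over all 109 genes hardly differed, with 2.94 FPKM in control and 3.003 FPKM in mogrol libraries. This is not the median change, which was -1.09 on the log2 scale. Of the 64 genes with a negative log2 fold change, Corin was number 5 from the lowest and Angpt2 number 53. The median of those 64 genes was -1.41, and the values of Corin and Angpt2 lay on either side of it.

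**Figure D3:**
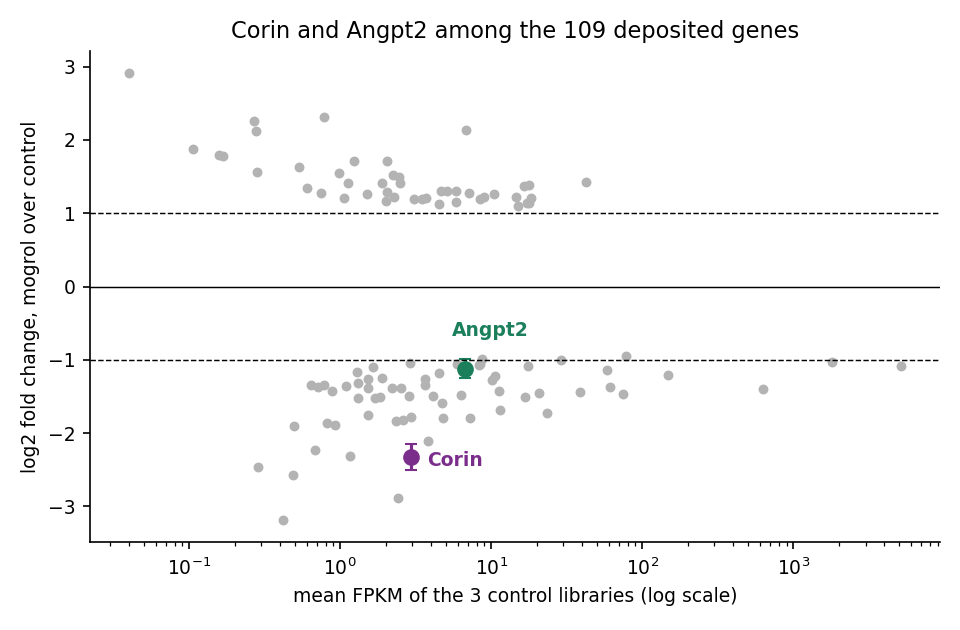
Log2 fold change (mogrol over control, edgeR) against the mean FPKM of the 3 control libraries (log axis) for the 109 deposited genes in grey, with Corin and Angpt2 in colour and their standard errors as bars. Dashed lines mark 2-fold; Corin at -2.33 lies among the larger falls and Angpt2 at -1.12 close to the line.

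Next to Corin in the order of log2 fold changes were Cyp26b1 at -2.46 and Mapk4 at -2.32, and next to Angpt2 were Thbs2 at -1.14 and Ncald at -1.10. Ncald and Mapk4 share 7.38% and 4.78% of their exonic bases with other annotated genes. None of the 4 neighbours differed from Corin or Angpt2 by more than its own standard error. The table was cut at a 2-fold change in the authors' own estimates. In the edgeR estimates the genes just inside that limit were Col6a2 at -1.01 and Ckb at -1.03. Those just outside it were Igfbp5 at -0.99 and Galnt6 at -0.95. Angpt2 lay within 1 standard error of the limit, and Corin did not. In all, 56.9% of the 109 genes were called lower in edgeR's quasi-likelihood test (adjusted p-value under 0.05 and log2 fold change below -1), and Corin and Angpt2 were 2 of the 62. The other 45 called genes were higher, so that 98.2% of the table was called in either direction. TMM over the table gave 36 lower and 45 higher, and median-of-ratios size factors gave 8 and 45. In 58.7% of the genes the mogrol libraries all lay below the control libraries, as they did for Corin and Angpt2, and the groups did not overlap in 100% of the genes when both directions are counted. All of these shares follow from the selection of the table.

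The genes whose levels over the 6 libraries were most like those of Corin differed from those most like Angpt2. Likeness was the root mean square distance between log2 RPM profiles (reads scaled to the library total), each centred on its own mean, so genes with a fall of similar size came out near. The 5 nearest to Corin were Mapk4, Iigp1, Nrep, Mmp13 and Nol4, at distances of 0.199 to 0.314. The 5 nearest to Angpt2 were Akr1c18, Tspan7, Ckb, Ctsk and Thbs2, at distances of 0.0660 to 0.0792. Those near Corin had 10 to 107 reads per mogrol library, and those near Angpt2 had 1039 or more. The part of counting error in these distances was not tested. The median distance to the other 108 genes was 0.653 for Corin and 0.584 for Angpt2. Corin and Angpt2 were 0.631 apart, a little under the median distance from Corin and a little over that from Angpt2. Ctsk encodes cathepsin K, the collagen-cutting protease of osteoclasts, and its log2 fold change of -1.08 (standard error 0.0790) was close to that of Angpt2. Its level was far higher, with 5159 ± 433.8 FPKM in control and 2444 ± 90.3 FPKM in mogrol libraries (SD, n = 3). Mmp13 encodes a collagenase. It went from 7.23 ± 0.568 to 2.08 ± 0.0896 FPKM (SD, n = 3).

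**Figure D4:**
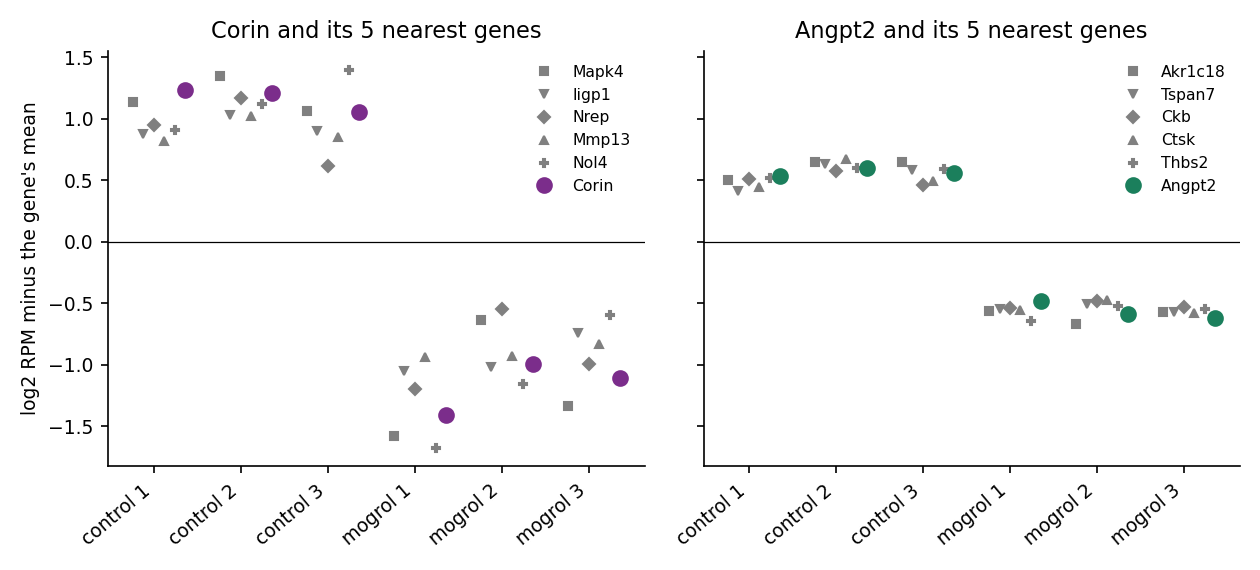
Log2 RPM of Corin (left) and Angpt2 (right) and of the 5 genes nearest to each, in each of the 6 libraries, minus the mean of each gene over the libraries. The Angpt2 set lies closely together (distances up to 0.0792), whereas the Corin set, whose genes had fewer reads, is more scattered (up to 0.314).

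Of the natriuretic peptide pathway, 1 of 15 listed genes was in the table, Corin itself. The hormone genes Nppa, Nppb and Nppc and the receptor genes Npr1, Npr2 and Npr3 were therefore not analysed here. Of 18 listed type II transmembrane serine proteases, St14 was the only other one in the table. St14 encodes matriptase, and it moved the other way. It had 13 to 34 reads in control and 72 to 87 reads in mogrol libraries, a log2 fold change of 1.77 (standard error 0.262). At 0.577 ± 0.0513 FPKM (SD, n = 3) in mogrol-treated cells St14 stood at about the level of Corin, whereas in control cells it stood at 0.167 ± 0.0751 FPKM. The GO term for serine-type endopeptidase or peptidase activity covered 4 genes of the table, Corin, St14, Gzmc and Gzmd. The granzyme genes Gzmc and Gzmd, proteases of cytotoxic lymphocytes, had log2 fold changes of -1.78 (standard error 0.314) and -1.27 (standard error 0.185). These are close paralogs between which counting could have split reads, so their values are uncertain. Of these 4 genes 3 were called lower and 1 higher, against 56.9% and 41.3% of all 109.

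Of 12 listed genes of the angiopoietin-Tie pathway, Angpt2 and Dok2 were in the table. The ligand gene Angpt1 and the receptor genes Tek and Tie1 were not analysed here. Dok2, an adaptor that binds activated Tie2 and is also present in blood cells, was higher with mogrol. Its level went from 5.80 ± 0.678 to 14.3 ± 1.00 FPKM (SD, n = 3), and edgeR put its log2 fold change at 1.30 (standard error 0.111). Of 24 listed angiogenic secreted factors, Angpt2 and Thbs2 were in the table, and both were called lower, as were 56.9% of all 109 genes. Thbs2 encodes thrombospondin-2, a matricellular inhibitor of vessel growth. Its level went from 58.4 ± 1.79 to 26.4 ± 1.19 FPKM (SD, n = 3), and its log2 fold change of -1.14 (standard error 0.0820) differed from that of Angpt2 by less than either standard error.

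Genes of the table with GO terms on angiogenesis moved in both directions. Angpt2, Thbs2, Thy1 and Adgrb1 were called lower, and Nrcam, Cx3cr1 and Sema4a were among those called higher. Adgrb1, an adhesion receptor whose fragments inhibit vessel growth, had the lowest value at -3.19 (standard error 0.364) on 5 to 8 reads per mogrol library. Cx3cr1, the fractalkine receptor gene of monocytes and macrophages, rose by 1.39 (standard error 0.0861). Adgrb1, Cx3cr1 and Sema4a share up to 1.73% of their exonic bases with other annotated genes. The GO term extracellular region covered Corin, Igsf10, Isg15 and Bpi, and all 4 were called lower, against 56.9% of all 109 genes. Igsf10 shares 19.8% of its exonic bases with genes on the opposite strand. The GO term extracellular space covered 11 genes, Angpt2 among them, of which 7 were called lower and 4 higher, near the split of 56.9% lower and 41.3% higher in the whole table. Of 33 listed secreted proteases and inhibitors, Mmp13 and Ctsk were called lower and Mmp12, macrophage elastase, was higher at 1.31 (standard error 0.0953), against 56.9% lower and 41.3% higher of all 109. Mmp12 shares 2.17% of its exonic bases with a gene on the opposite strand.

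**Figure D5:**
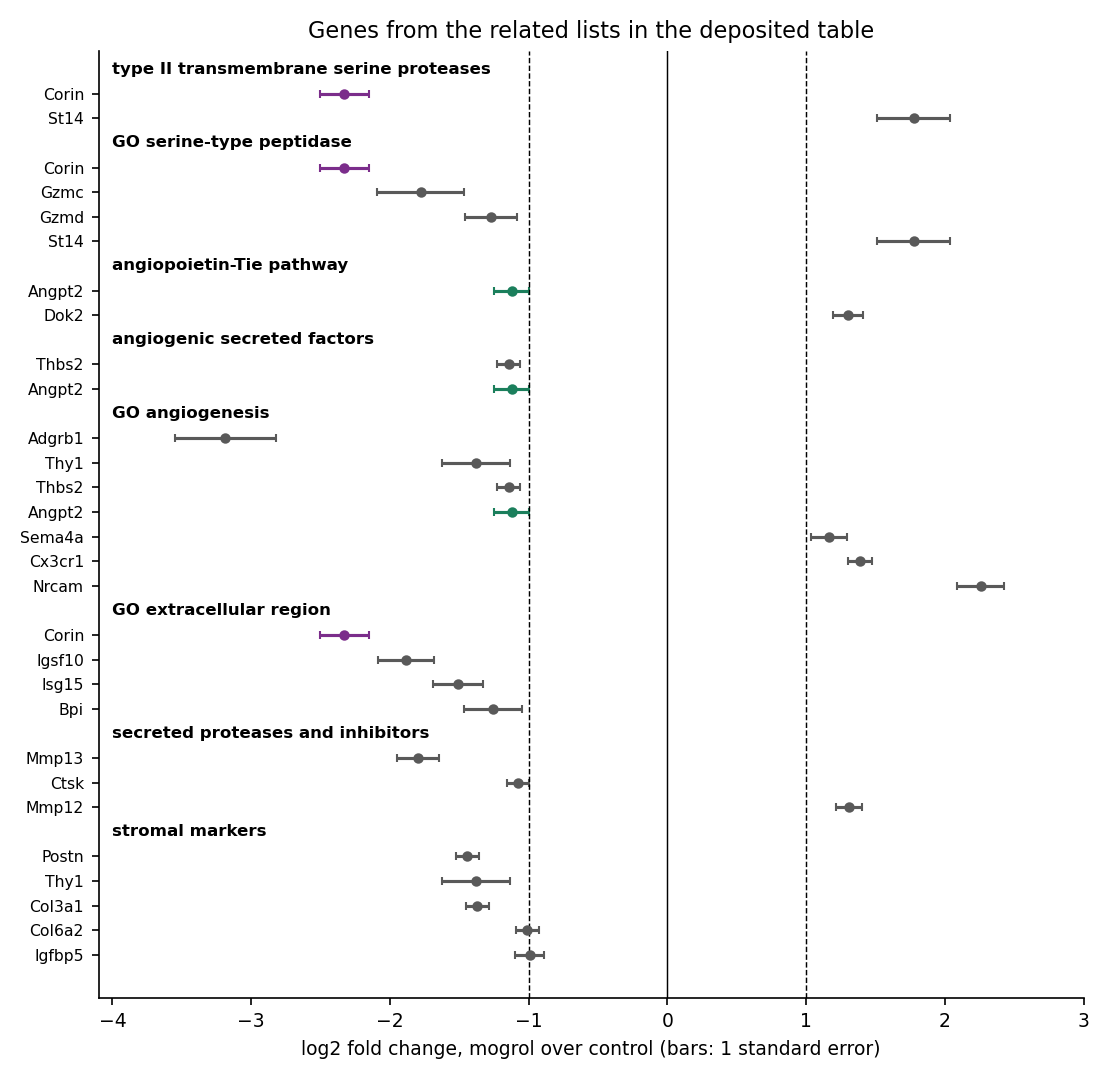
Log2 fold changes (mogrol over control, edgeR) with 1 standard error for genes from the lists related to Corin and Angpt2, grouped by list; dashed lines mark 2-fold. St14 at 1.77 and Dok2 at 1.30 lie on the opposite side from Corin at -2.33 and Angpt2 at -1.12. The 5 stromal markers that were in the table, of 20 listed, lie below 0.

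Of the markers of other cells, the stromal markers in the table moved in the same direction as Corin and Angpt2. Of 20 listed markers of stromal cells, the connective tissue cells of the marrow, 5 were in the table and 4 were called lower, against 56.9% of all 109 genes. These were Col3a1, Col6a2, Postn and Thy1, with log2 fold changes of -1.37, -1.01, -1.44 and -1.38. Igfbp5, with -0.99, fell short of 2-fold. Summed over the 5 genes the level was 1196 to 1263 RPM in control libraries and 484.0 to 528.6 RPM in mogrol libraries. The fall of these genes lay between those of Angpt2 and Corin for Col3a1, Postn and Thy1. So did that of most of the 64 falling genes, among which Corin was number 5 from the lowest and Angpt2 number 53. Of 14 osteoclast markers Ctsk alone was in the table, lower at -1.08. The authors' paper lists Acp5, Oscar, Siglec15, Mmp9 and Atp6v0d2 of these markers as lower too, each by less than 2-fold. Of 14 macrophage markers Cx3cr1 alone was in the table, and it moved the other way, at 1.39. Osteoclast, macrophage and stromal markers absent from the table may have changed by less than 2-fold. None of 14 endothelial, 12 pericyte and smooth muscle or 10 cardiomyocyte markers was in the table, and since the table holds selected genes their levels are not known here. Which cells of the culture held the Corin and Angpt2 transcripts, and the part of these other cells in the result, was not tested.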

How the data were processed

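RNA-seq was measured in 3 control and 3 mogrol libraries, with groups and replicate numbers taken from the sample labels. The submitters' processing notes name cutadapt 1.9.1, HISAT2 2.0.1, HTSeq 0.6.1 and GRCm38. The deposited table holds whole read counts as the authors made them, without normalization, and the authors' FPKM with 2 decimals. Another deposited column, the mean normalized count, is a signal that the authors made with DESeq2 size factors. Its columns of fold changes and p-values, the authors' own DESeq2 comparison, were not used.

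Library totals were recovered from the count, FPKM and length columns, to within 35.7 reads. The 654 recomputed FPKM values lay within 0.01 of the deposited ones. Counts of all 109 genes were fitted with edgeR 4.0.16 (glmQLFit, R 4.3.3) on these totals, with no filter and Benjamini-Hochberg adjustment over 109 genes. The fit was tested on simulated data in which most genes did not change, unlike in this table. Standard errors are the size of the log2 fold change over the square root of F. Depth sets precision through the reads per gene, and Poisson intervals cover counting error only. Libraries of a group differed by more than sampling noise (chi-square divided by its degrees of freedom, 5.23 to 19.6), so each was counted as 1 sample. Alternatives covered other scalings, DESeq2 1.42.0, a filter at 50 reads, limma 3.58.1 with 0.1 or 1 added to FPKM before log2, a replicate block and left-out libraries.

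Gene positions come from GENCODE M21, which held all 109 identifiers, 107 with the deposited start and end. Genes named are Corin, Angpt2, the 5 nearest to each by profile, their neighbours in fold change, genes at the 2-fold limit, overlapping genes, and genes of the lists and GO terms that are in the table, of which 1 gene is not reported here. These genes and lists were chosen with earlier results of these data known, and the motifs after the promoter was read.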

Additional observations from a re-analysis of the deposited data

How the results depend on the processing

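The log2 fold changes of Corin and Angpt2 were negative under all 14 alternatives. Corin lay between -2.42 and -1.32 and Angpt2 between -1.19 and -0.14 on the log2 scale. Against the main values of -2.33 and -1.12, TMM over the table gave -1.96 and -0.75, median-of-ratios size factors -1.35 and -0.14, and limma on log2(FPKM + 1) -1.32 and -0.92, and Angpt2 was no longer past 2-fold in these 3. Its -0.14 had a standard error of 0.130, so under that scaling the direction was not resolved from 0. The first 2 assume that most genes do not change, whereas 98.2% of this table was called in the main fit. More genes in it fell than rose, and the added 1 shrinks the fold of genes at low FPKM. The size factors recovered from the authors' mean normalized counts, relative to library totals, differed by 0.07 between the groups on the log2 scale. They gave -1.19 for Angpt2. Over all genes, 62 lower and 45 higher became 36 and 45 with TMM, 8 and 45 with median-of-ratios size factors, and 27 and 25 with limma on log2(FPKM + 1). Leaving out each library gave -2.42 to -2.22 for Corin, -1.16 to -1.10 for Angpt2, and 60 to 63 genes lower with 45 higher. FPKM means and ratios moved by less than 1 SD with recomputed FPKM and with each library left out.

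In the fit with a replicate block, the log2 fold changes were -2.33 for Corin (standard error 0.161) and -1.12 for Angpt2 (standard error 0.109). It called 62 genes lower and 45 higher, and no call changed. The labels give no sign of pairing, so the main fit assumed none. Libraries of the same number deviated together with correlations of 0.0839, 0.197 and 0.0666 across the 109 genes, which are not independent replicates. In all, 5 of 6 libraries correlated best with their own number, and whether the libraries were paired is not known. Of Corin and Angpt2, Corin rested on fewer reads, with 49 to 64 per mogrol library.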
